A study of Arabidopsis thaliana with 12 samples.

Results

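XERICO (AT2G04240) and AT3G04210 are a pair of nuclear Arabidopsis thaliana genes that are linked to stress and immunity. They were chosen by name with their intensities in WT and prors1 already known, as loci that a probe names alone. Each of the 2 genes had 1 such probe, among 691 genes so named by 692 probes and 3439 probes in all. The samples were 6 of the wild type (WT) and 6 of the prors1 mutant, both in the Columbia 0 ecotype. Total RNA of each was measured on a single-channel array. The mutant is labelled as lacking a prolyl-tRNA synthetase, the enzyme that loads transfer RNA with proline. The labels name no allele and do not say how complete the loss is. They give no tissue, age or growth condition, and no gene of the lists for root, seed, senescent leaf or guard cell had a probe of its own, so the tissue could not be checked here. Sample titles carry replicate numbers from 1 to 6 in each genotype, with nothing on whether these were separate plants, so a p-value here covers only the variation among these arrays, some or all of which may be technical.

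XERICO is a small protein with a RING-H2 zinc finger, a fold that many ubiquitin ligases use to mark proteins for breakdown. Plants that overproduce it hold more abscisic acid, the hormone that closes stomata and switches on drought genes, and tolerate drought better. Its transcript is raised by salt and osmotic stress and is a target of DELLA proteins, the repressors of gibberellin signalling. AT3G04210 belongs to the genes with a TIR domain, the Toll/interleukin-1 receptor module that stands at the front of one large class of plant immune receptors, where it helps to start defence signalling. The gene table lists 2 transcripts for each locus, and the probe could not be assigned to 1 of them. The genes on either side of each locus had no single-gene probe.

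The deposited intensities of XERICO in WT replicates 1 to 6 were 1.85, 2.09, 2.96, 2.75, 2.01 and 1.95 on the authors' linear scale, which ends at 100. In prors1 replicates 1 to 6 they were 3.83, 3.83, 4.001, 3.99, 4.19 and 4.43. Every prors1 sample lay above every WT sample, and WT replicates 3 and 4 were the brightest of the wild type. WT averaged 2.27 ± 0.468 and prors1 averaged 4.05 ± 0.229 (SD, n = 6 each), a ratio of 1.78. As deposited, 36.3% of all 3307 features had every prors1 value above every WT value, so this separation was common on these arrays. Because the genotype difference was known when the loci were chosen, it is given as a description without a test. In bulk RNA, a higher level per cell and a larger share of cells that express the gene cannot be told apart.

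The deposited intensities of AT3G04210 in WT replicates 1 to 6 were 0.889, 0.937, 0.799, 0.884, 0.926 and 0.953. In prors1 replicates 1 to 6 they were 1.55, 1.57, 1.56, 1.37, 1.99 and 2.08. Again every prors1 sample lay above every WT sample, as for 36.3% of all 3307 features as deposited. Here prors1 replicates 5 and 6 stood above the other 4. WT averaged 0.898 ± 0.0555 and prors1 averaged 1.69 ± 0.282 (SD, n = 6 each), a ratio of 1.88.

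**Figure D1:**
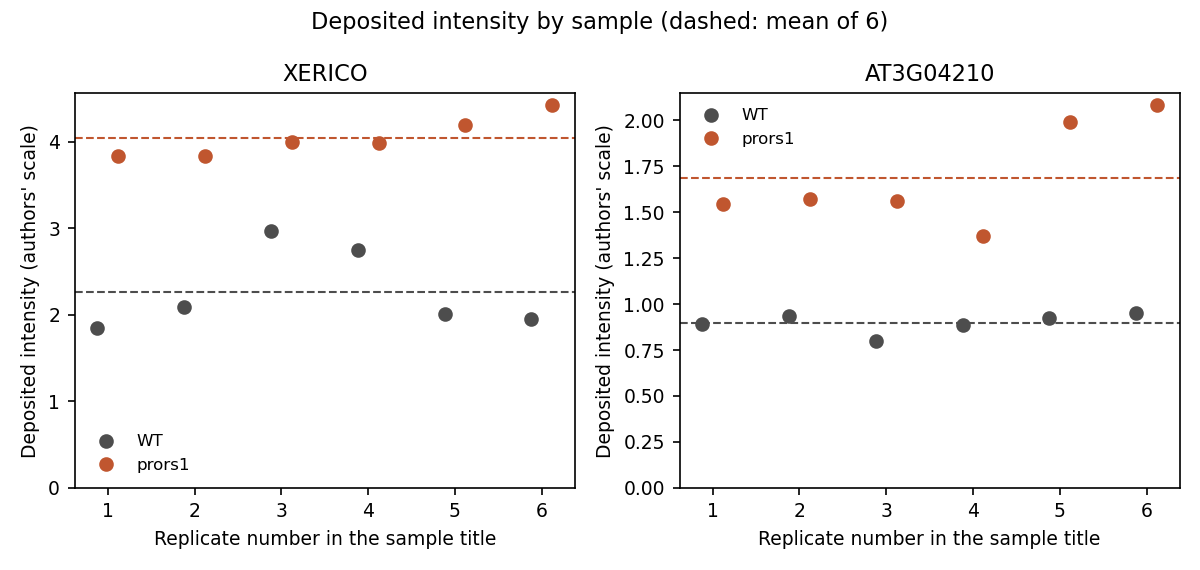
Deposited intensity of XERICO and AT3G04210 (vertical axes, authors' linear scale) in each sample, by the replicate number in its title (horizontal axes), with WT in grey and prors1 in orange and dashed lines at the mean of 6 samples. All prors1 points lie above all WT points for both genes, as for 36.3% of all features, with XERICO at 1.85 to 2.96 in WT and 3.83 to 4.43 in prors1.

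The whole distribution of the signal also differed between the genotypes, and this bears on how the pair of genes can be read. Array medians averaged 0.154 ± 0.0141 for WT and 0.349 ± 0.0852 for prors1 (SD, n = 6 each), 2.27 times as high. The array mean was 1.096 times as high, and the 90th percentile of an array 1.29 times. Before any scaling, the median over all features of the log2 difference was 0.91. XERICO was 0.86 higher and AT3G04210 was 0.90 higher, so both lay slightly below the median feature. Bright features had moved less than dim ones. The 98 features within 0.5 log2 units of the mean level of XERICO had a median difference of -0.02 as deposited, with quartiles at -0.45 and 0.52. The 248 features of a level like that of AT3G04210 had a median difference of 0.35, with quartiles at -0.11 and 0.83. Both genes thus stood above the upper quartile of features as bright as themselves, AT3G04210 only just (0.90 against 0.83). The genotype difference was known when the loci were chosen, so this is a description and no support.

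Arrays were therefore also put on 1 shared distribution by quantile scaling, with values under a low floor raised to it. None of the 24 values of the pair of genes lay at that floor. After this scaling the log2 level of XERICO was 1.23 ± 0.20 for WT and 1.96 ± 0.09 for prors1 (SD, n = 6 each). The difference was 0.72, which is 1.65-fold higher in prors1, and the genotypes did not overlap, as was the case in this direction for 11.4% of 3303 features. That of AT3G04210 was 0.09 ± 0.15 for WT and 0.56 ± 0.32 for prors1 (SD, n = 6 each). The difference was 0.47, or 1.39-fold, and here the groups overlapped, because prors1 replicate 4 at 0.12 lay below WT replicates 2, 5 and 6. Over all features 19.6% were called higher and 23.2% lower in prors1 in limma at an adjusted p of 0.05. By size of difference after this scaling, XERICO ranked 512 from the top of the 3303 features and AT3G04210 ranked 793. As deposited they ranked only 1741 and 1680 of 3307 features, so the rank depended on the scaling.

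The position of a probe among all probes of its own array does not change with any scaling that keeps the order of the probes. Quantile scaling sets each value from this position, so the percentile restates the quantile-scaled result in other units. XERICO stood at the 93.7th to 95.6th percentile in WT and at the 96.6th to 97.0th in prors1. The percentile averaged 94.6 ± 0.747 for WT and 96.8 ± 0.193 for prors1 (SD, n = 6 each), 2.27 percentage points higher, with no overlap between the genotypes. The same held for 11.1% of all probes. AT3G04210 stood at the 85.5th to 89.0th percentile in WT and at the 88.0th to 93.5th in prors1, 3.39 percentage points higher, and prors1 replicate 4 lay within the WT range. Both transcripts were thus among the brighter signals of either genotype, and the mean position of each was higher in the mutant.

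**Figure D2:**
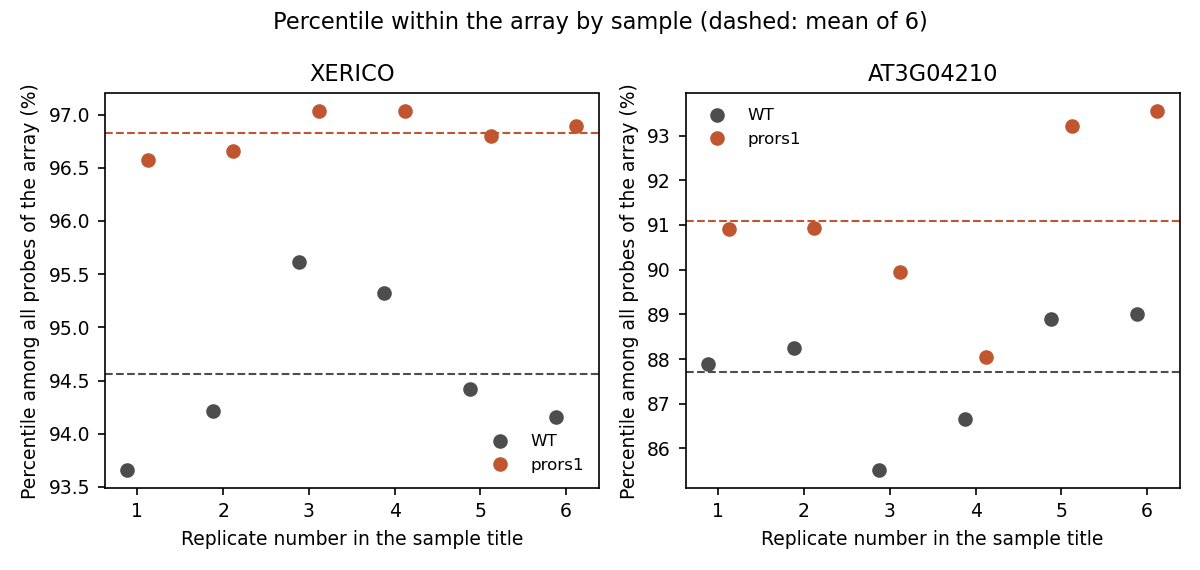
Percentile of each probe among the 3439 probes of its array (vertical axes, percent) by replicate number (horizontal axes), with WT in grey, prors1 in orange and dashed lines at the mean of 6 samples. XERICO is separated by genotype, while prors1 replicate 4 of AT3G04210 at 88.0 falls among the WT values.

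Samples with the same number deviated together across the genotypes, so the pairs were also compared number by number. After quantile scaling, prors1 exceeded WT in 6 of 6 pairs for XERICO, by 0.85, 0.74, 0.53, 0.61, 0.75 and 0.86 on the log2 scale for numbers 1 to 6. As the genotypes did not overlap, any pairing gives 6 of 6 here, and the count adds nothing. The smallest differences were those of numbers 3 and 4, where the WT values were highest. For AT3G04210 the differences were 0.40, 0.37, 0.51, 0.15, 0.68 and 0.73 for numbers 1 to 6, again positive in 6 of 6 pairs, with the largest in numbers 5 and 6. Neighbouring numbers resembled each other, so the 6 pairs may not be independent. The share of all features with such a count was not computed.

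Dividing each array by its median, which takes the rise of the median fully out of every probe, reversed the mean difference of both genes. XERICO then stood at -0.29 on the log2 scale, and AT3G04210 at -0.25, with the genotypes overlapping for both. Features of like level fell further under this scaling. Their median difference was -1.16 around XERICO (upper quartile -0.62) and -0.80 around AT3G04210 (upper quartile -0.32). Both genes thus lay above the upper quartile of features as bright as themselves, AT3G04210 only just (-0.25 against -0.32). As the genotype difference was known when the loci were chosen, this does not offset the reversal. The pairs did not run the same way there. Numbers 5 and 6 remained higher in prors1, by 0.18 and 0.35 for XERICO and by 0.22 and 0.29 for AT3G04210, while numbers 1 to 4 were lower. In units of the array median, XERICO reached 12.04 to 17.6 in WT, 8.98 to 10.8 in prors1 replicates 1 to 4, and 16.8 and 17.7 in prors1 replicates 5 and 6. These last replicates were those in which the array median had risen least, to 0.250 in each against 0.353 to 0.444 in the other 4. The features called higher fell to 16.8% and those called lower rose to 30.5% under this scaling. Cyclic loess, which evens out differences between arrays along the range of brightness, gave 0.84 for XERICO and 0.55 for AT3G04210. The genotypes did not overlap for either gene, so 6 of 6 pairs were positive for each. By size of difference XERICO and AT3G04210 ranked 1929 and 1865 of 3293 features after division by the median. After cyclic loess they ranked 409 and 741 of 3307.

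**Figure D3:**
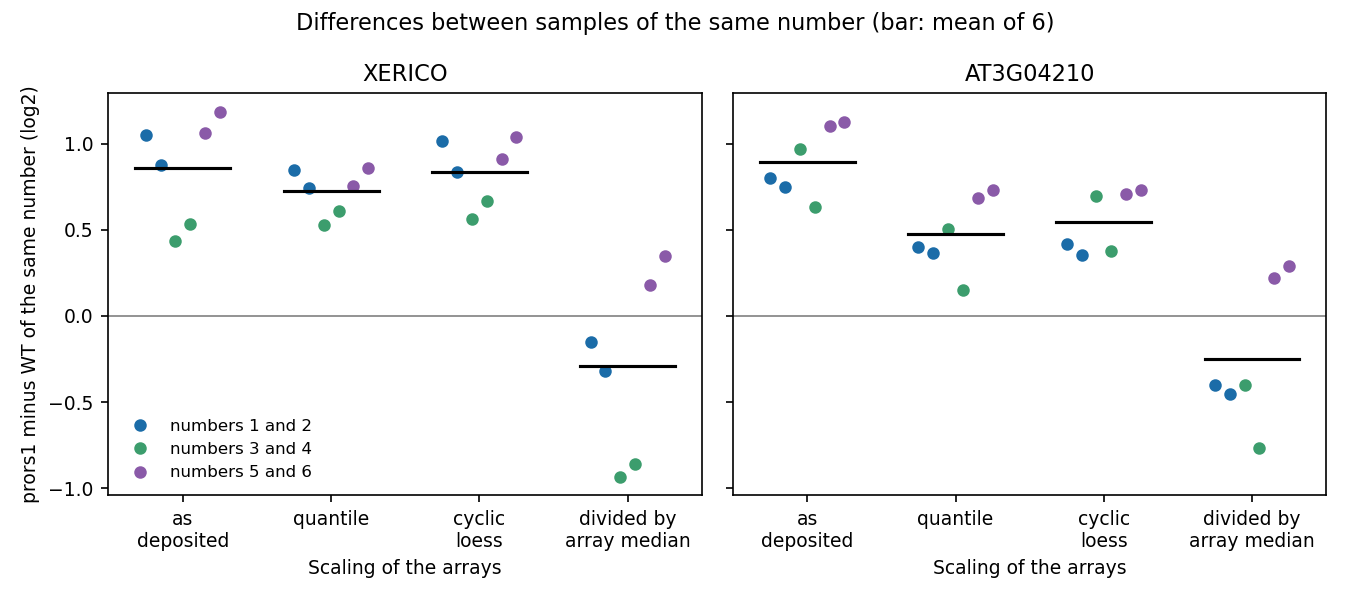
Difference between the prors1 and the WT sample of the same number (vertical axis, log2) under 4 ways of scaling the arrays (horizontal axis), coloured by pairs of numbers, with a bar at the mean of 6. Differences are above 0 as deposited, after quantile scaling and after cyclic loess, and on both sides of 0 after division by the array median, where numbers 5 and 6 stay positive.

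The change of one gene relative to the other within the same array does not depend on a factor that multiplies the whole array. As deposited, the difference of XERICO was smaller than that of AT3G04210 by 0.04 on the log2 scale, and division by the array median gave the same -0.04. Quantile scaling gave 0.25 and cyclic loess 0.29, both larger for XERICO. The order of the 2 mean differences thus changed with the scaling. As deposited the pairs did not share an order either. XERICO differed more than AT3G04210 in number 1 (1.05 against 0.80) and less in number 3 (0.43 against 0.97).

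The spread between samples of 1 genotype was not used to choose the genes. After quantile scaling XERICO had an SD within a genotype of 0.16 on the log2 scale, against a median of 0.21 over 96 features of like level that were never at the floor. AT3G04210 had an SD of 0.25, against a median of 0.23 over 247 such features. The spread lay mostly between sets of samples. Neighbouring numbers (1 and 2, 3 and 4, 5 and 6) of a genotype differed on average by 0.06 for XERICO and 0.08 for AT3G04210. At most they differed by 0.15 and 0.24. The full range in WT was 0.53 and 0.38, although a range over 6 samples is never smaller than a gap between 2 of them. The range in prors1 was 0.21 for XERICO and 0.84 for AT3G04210. The 2 genes did not share the pattern between sets. In WT, numbers 3 and 4 were highest for XERICO, at a mean of 1.48 against 1.06 and 1.16, and lowest for AT3G04210, at -0.09 against 0.12 and 0.22. In prors1, numbers 3 and 4 were again highest for XERICO, at 2.05, and lowest for AT3G04210, at 0.24.

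Likeness to other genes was measured as the root-mean-square difference of log2 values over the 12 samples, after each gene was centred on its own mean, among 460 single-gene features never at the floor. The genes most like XERICO were AT2G22890 (0.10), AT3G19810 (0.10), AT2G04790 (0.11) and AT5G63290 (0.15). Those most like AT3G04210 were AT1G51080 (0.17), AT1G11470 (0.19), AT3G47650 (0.21) and AT3G23940 (0.23). Between XERICO and AT3G04210 the difference was 0.34. On the deposited values the 4 genes most like XERICO ranked only 42 to 73, and those most like AT3G04210 ranked 9, 10, 12 and 114. Centring on the mean of all 12 samples leaves the genotype difference in this measure. After quantile scaling the 4 genes most like XERICO were 0.57 to 0.77 higher in prors1. Those most like AT3G04210 were 0.18 to 0.61 higher. Likeness here thus partly restates a difference that was known when the loci were chosen. Shared regulation was not tested.

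**Figure D4:**
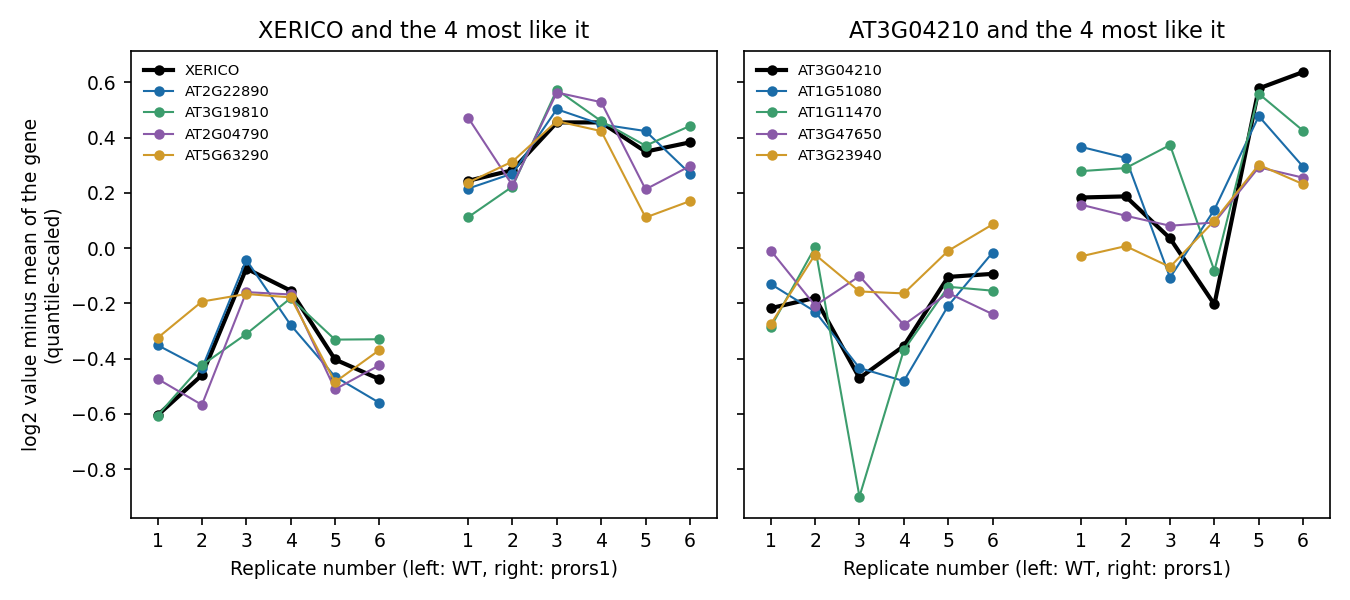
Quantile-scaled log2 values after subtraction of the mean of each gene (vertical axis) by sample (horizontal axis, WT on the left and prors1 on the right), for XERICO, AT3G04210 (black) and the 4 genes most like each (colours). Lines only join values of 1 gene, since replicates have no order. In WT, XERICO and its 4 genes are highest in replicate 3 or 4, while AT3G04210 is lowest in replicate 3.

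Few other genes of the same pathways could be read. Of 199 genes in lists for abscisic acid, drought and cold response, stress-related ubiquitin ligases, gibberellin and DELLA proteins, immune receptors, defence hormones and tissues, 0 had a single-gene probe. By words in their names, DI21 (drought-induced) and SIS (salt-induced serine-rich) were the 2 measured genes of abiotic stress, and 0 of the 2 were called in limma after quantile scaling, also 0 at an unadjusted p of 0.05. The log2 difference was -0.27 ± 0.20 for DI21 and -0.08 ± 0.47 for SIS (SE, adjusted p = 0.298 and 0.917 in limma). On the values as deposited DI21 was called higher, at 0.81 (adjusted p = 0.00653), again below the median feature of 0.91. The same search of symbols and synonyms found no other gene named for a RING finger, a TIR domain or disease resistance. Many single-gene features carry only a locus number as symbol, so the search can miss measured genes of these families.

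A wider set of 22 genes was drawn up from the symbols of the annotation after these had been seen. It holds genes of stress, hormones, signalling, detoxification and DNA damage, and F-box and GRAS genes, not all of them stress genes. In limma after quantile scaling, 2 (9.09%) were called higher and 4 (18.2%) lower in prors1, where 19.6% and 23.2% of all features were, and 16 did not pass, with a median difference of -0.16 against -0.02 over all 3303 features. With neighbouring numbers averaged (n = 3 per genotype), 2 were higher and 1 lower, against 10.8% and 11.8% of all features. As deposited, 12 were higher and 1 lower, where 61.4% and 5.5% of all features were. The short lists that follow hold 2 to 6 of these genes each, too few for a share to be set against those of all features.

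Among genes of calcium, glutamate and peptide signalling, 1 of 4 was called. CML30, a calmodulin-like calcium sensor, stood at -0.37 to -0.11 in WT and at 0.48 to 1.09 in prors1 on the log2 scale, without overlap. It was 2.18-fold higher (difference 1.12 ± 0.12, SE, adjusted p = 1.65e-05 in limma), although after division by the array median it stood at 0.43 without passing the test (adjusted p = 0.119). Its relative CML41 differed by 0.27 ± 0.11 (SE, adjusted p = 0.0571), and passed with the replicate number as a block (adjusted p = 0.0331) but not with neighbouring numbers averaged (adjusted p = 0.275) or as a random block (adjusted p = 0.181). The glutamate receptor gene GLR2.7 (0.14 ± 0.17) and the peptide hormone gene RALFL32 (0.06 ± 0.86) did not pass (SE, adjusted p = 0.54 and 0.965 in limma).

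Of 4 genes named for induction by a stress, 1 was called, and it was lower. AILP1, an aluminium-induced protein gene, stood at -1.93 to -1.19 in WT and at -4.42 to -2.30 in prors1, where 1 value lay at the floor. It was 4.03-fold lower (adjusted p = 0.000865 in limma), and it was called lower as deposited (-0.83, adjusted p = 0.00607), with arrays divided by their medians (-1.97), after cyclic loess (-2.18) and with samples averaged (adjusted p = 0.0358). MAMI, a mannitol-induced membrane protein gene, differed by -0.14 ± 0.17 (SE, adjusted p = 0.548).

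Of 3 genes listed as hormone-related regulators, 2 were called lower. AT4G03090, listed as the homeobox gene NDX, differed by -0.57 ± 0.17 (SE, adjusted p = 0.0177 in limma) and UBA1A, an RNA-binding protein gene, by -0.996 ± 0.35 (SE, adjusted p = 0.0358). With samples averaged neither passed (adjusted p = 0.121 and 0.156), and as deposited both were positive, at 0.57 and 0.29, below the median feature. There AT4G03090 was called higher (adjusted p = 0.00393 in limma) and UBA1A was not called (adjusted p = 0.359). IAA31, of the auxin repressor family, lay at the floor in 11 of 12 samples and at 2.27 in prors1 replicate 6.

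Of 6 antioxidant and detoxification genes, 1 was called lower and none higher. GLDH, which makes ascorbate in mitochondria, was 1.66-fold lower (-0.73 ± 0.16, SE, adjusted p = 0.00245 in limma), with an adjusted p of 0.0533 with samples averaged and a difference of 0.12 as deposited. NTRC, a plastid thioredoxin reductase, differed by -0.29 ± 0.13 (SE, adjusted p = 0.0932) and passed with the replicate number as a block (adjusted p = 0.0332) but not with neighbouring numbers averaged (adjusted p = 0.268) or as a random block (adjusted p = 0.293). SRX, the sulfiredoxin gene (-0.52 ± 0.31), GLX2-1, named as a glyoxalase (-0.45 ± 0.37), CCS, the copper chaperone of superoxide dismutase (-0.37 ± 0.20), and the lipocalin gene CHL (-0.09 ± 0.45) did not pass (SE), at adjusted p-values from 0.149 to 0.898 in limma.

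Of 3 DNA damage genes, APTX was called higher and the other two did not pass. APTX, related to aprataxin, an enzyme that repairs blocked DNA ends, was 2.83-fold higher (1.502 ± 0.27, SE, adjusted p = 0.000851 in limma), and it was called higher under all 4 scalings shown for the pair of genes and with samples averaged. DRT100 differed by -0.18 ± 0.19 and DRT101 by -0.12 ± 0.09 (SE, adjusted p = 0.498 and 0.311). The F-box gene FBL17 (-0.28 ± 0.34) and the GRAS family gene LAS (0.08 ± 0.26), related to the DELLA genes, did not pass either (SE, adjusted p = 0.545 and 0.838).

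**Figure D5:**
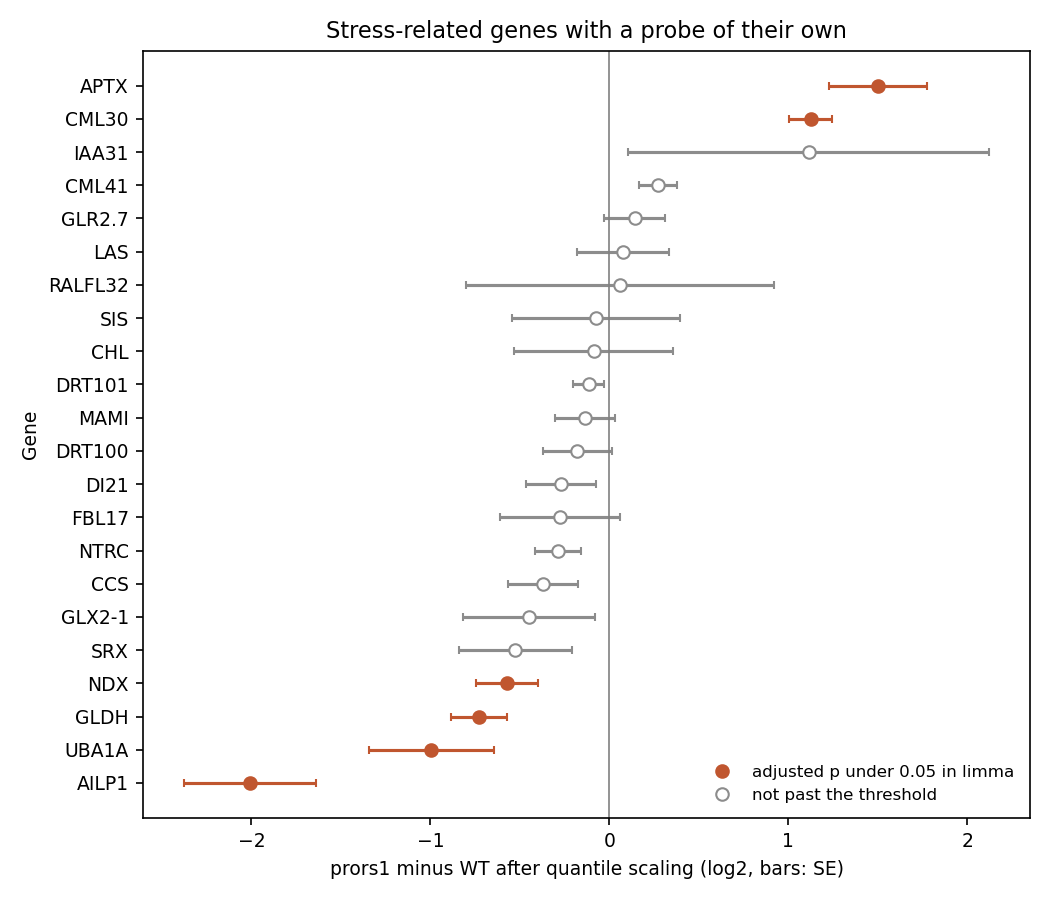
Difference between prors1 and WT after quantile scaling (horizontal axis, log2, bars are SE) of the 22 genes of the wider set, not all of them stress genes (vertical axis), with filled orange points where the adjusted p in limma was under 0.05. APTX and CML30 lie on the higher side, and AILP1, UBA1A, GLDH and NDX on the lower side.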

How the data were processed

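One table of intensity values was deposited by the authors, with a column per sample. Label, scanner, background correction and scaling are not given in the sources used here. Of 3439 probes, 692 had 1 gene in the platform annotation, which can be old, 870 several and 1877 none. Symbols came from the TAIR10.1 gene table (690 matched). No coordinates are given, since no build is named for the probes, and no sequences were used.

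Arrays were quantile-scaled, a floor at the 5th percentile of positive values (0.0467) replaced the 13.7% of values below it, log2 was taken, rows of 1 locus were averaged and 135 features at the floor everywhere were left out. For cyclic loess the floor was set first. The remaining 3303 features were tested with limma 3.58.1 in R 4.3.3 (genotype only, two-sided, Benjamini-Hochberg adjustment), and the procedure was tested on simulated data. The simulated samples were independent, whereas samples of the same number deviated together on these arrays. The simulation therefore cannot show how many false calls these data hold. Precision is limited by the number of arrays.

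The genes and lists were chosen with earlier results of these data known. Named genes were all measured genes of lists with at most 6, and the 4 most like each locus. The 22 genes, and scaling by the array mean or 90th percentile, were added after the data were seen. After subtraction of genotype means, same-numbered samples had correlations from 0.347 to 0.489 across 2386 features above the floor in all samples, against at most 0.273 between other numbers, so numbers pair the samples.

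Alternatives were other scalings and floors, leaving out samples, a replicate block, neighbouring numbers averaged or as a random block, leaving out the dimmest 25% of features, and another variance model.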

Additional observations from a re-analysis of the deposited data

Results flagged for a closer look

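Of the 64 groups of 6 samples checked, which cover XERICO, AT3G04210 and the other named genes, 5 had 1 sample far from the others. None of the 5 belonged to XERICO or AT3G04210. Chance gives about 1 in 20 where values vary freely. That rate does not apply to groups with values at the floor, such as those of IAA31, CCS and DRT100 in prors1. On the quantile-scaled log2 scale, prors1 replicate 6 reached 2.27 for IAA31, the other 5 lying at the floor of -4.42. WT replicate 1 reached -1.60 for CML41, followed by -1.84. prors1 replicate 1 reached -4.03 for CCS against -4.42 in the others. WT replicate 5 fell to -1.46 for NTRC, the closest value being -1.096, and prors1 replicate 2 reached -3.47 for DRT100, followed by -4.27.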

How the results depend on the processing

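The difference of XERICO (0.72 on the log2 scale after quantile scaling) became -0.29 and that of AT3G04210 (0.47) became -0.25 with each array divided by its median. Division by the 90th percentile gave 0.49 for XERICO, and for AT3G04210 the values as deposited gave 0.90 and division by the mean 0.76. Leaving out samples gave 0.67 to 0.78 for XERICO and 0.39 to 0.56 for AT3G04210. The replicate block, which leaves these differences unchanged by construction, called 1664 features against 1414, and besides CML41 and NTRC, which it added, changed no call among the 22 genes. As deposited 2212 features were called (2030 higher and 182 lower), and 749 with neighbouring numbers averaged, where fewer samples were tested. The split was 552 and 1003 with division by the median, 1849 and 245 by the mean, and 1504 and 372 by the 90th percentile. Of the 2 genes of the fixed lists, 1 was called as deposited and with division by the mean. Of the 22 genes, 13 were called as deposited, 12 with division by the mean and 3 with samples averaged, against 6. Among named genes called in at least 1 of both settings compared, signs turned as deposited for DI21 (0.81), MAMI (0.79), AT4G03090 (0.57), UBA1A (0.29), CCS (0.83), GLDH (0.12), NTRC (0.60), DRT100 (0.94) and DRT101 (0.62), of which UBA1A and GLDH were not called there. With division by the mean they turned for DI21 (0.67), MAMI (0.66), AT4G03090 (0.43), UBA1A (0.15, not called), CCS (0.72), DRT100 (0.86) and DRT101 (0.49), and by the 90th percentile for AT4G03090 (0.20, not called). Genes called in neither setting turned too: 5 of 22 as deposited, 6 with the mean and 11 with the 90th percentile. On unscaled values the median feature itself was 0.91 higher, and 0.79 and 0.57 after division by the mean and the 90th percentile. Of 616 values of these genes under alternatives, 25 lost the call, 23 gained it and 78 changed sign, 17 of them called in at least 1 setting and 61 in neither. UBA1A lost its call in 13 of 18 fits without a sample or number, and AT4G03090 in 2, without number 3 or 4.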
